A study of Mus musculus with 10 samples.

Results

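A set of 10 genes of insulin signalling and glucose uptake was followed in gastrocnemius (GTN) muscle of mice without the mitochondrial thioredoxin reductase TXNRD2 in muscle fibres. They are the ligand gene *Igf1*, the receptor gene *Insr*, the docking protein genes *Irs1* and *Irs2*, the regulatory subunit gene *Pik3r1* and the kinase gene *Akt2*, the traffic genes *Tbc1d1* and *Tbc1d4*, and the glucose transporter genes *Slc2a4* and *Slc2a1*. The members were chosen by gene symbol, with no measured value in the rule but with earlier results of these data known. Each of the 10 had 1 probe set, among 19505 genes and 22206 probe sets in all. RNA was measured on Affymetrix Clariom S mouse arrays, with 1 array for each of 10 male mice aged 60 days on standard chow. The 5 mTKO mice carried floxed *Txnrd2* alleles (fl/fl) and an ACTA1-Cre transgene, which places Cre recombinase under the promoter of human skeletal actin. The 5 ctrl mice were *Txnrd2* fl/fl as well but lacked Cre, so that the floxed alleles were common to both groups and the transgene was not. Cre is active in myofibres and not in satellite cells in this model, while the whole muscle was used for RNA. The hour of dissection and the feeding state of the mice are not given in the sources used here.

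Insulin binds its receptor on the muscle fibre, and the receptor phosphorylates the docking proteins IRS1 and IRS2. These recruit phosphatidylinositol 3-kinase, whose product brings the kinase AKT2 to the membrane. AKT2 then phosphorylates TBC1D4 (also called AS160), which otherwise holds vesicles with the glucose transporter GLUT4 inside the cell. TBC1D1 is its paralogue and is known to be a target of AMP-activated kinase as well as AKT. Skeletal muscle takes up most of the glucose cleared after a meal. Much of this control is exerted through phosphorylation and vesicle movement, which an RNA measurement does not read.

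Values are log2 signals, on which a difference of 1 is a fold of 2. The median over all probe sets and arrays was 6.10, and the 10 members averaged 9.40 to 13.43, well above it. Arrays correlated with each other at 0.986 to 0.990. *Txnrd2*, the targeted gene, had 7.51, 7.54, 7.96, 7.79 and 7.90 in the mTKO mice, against 8.82, 9.08, 8.67, 8.47 and 8.65 in the ctrl mice. The mTKO arrays were all below the ctrl arrays, with a difference of -1.0 (SE 0.16) that had an adjusted p of 0.118 in limma and an unadjusted p of 0.00794 in an exact permutation test, the smallest p that 5 against 5 can give. Whole muscle also holds cells without Cre, and fewer cells of a type cannot be told apart from less RNA per cell.

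None of the 10 members passed the adjusted threshold between mTKO and ctrl muscle. Genotypes were compared with limma, with p-values adjusted by the Benjamini-Hochberg method over all 22206 probe sets and a threshold of 0.05, which 1 probe set passed (0.00450%). At an unadjusted p under 0.05 there were 2 members, *Tbc1d1* with the lower mean in mTKO mice and *Tbc1d4* with the higher. Over all probe sets 6.36% reached that level, 3.10% higher and 3.26% lower in mTKO mice. The members' share of 2 in 10 rests on these 2 genes alone. The genotypes overlapped in each of the 10 genes, whereas 1.02% of all probe sets had no overlap. The differences were positive for 5 members and negative for 5, with a median of 0.00 for the members and 0.00 for all probe sets. The median size of the difference regardless of sign was 0.22 for the members, 0.14 for all probe sets, and 0.12 for the 3997 probe sets with mean signals as bright as the members'. The members also varied more within a genotype, with a median pooled SD of 0.33 against 0.30 for all probe sets and 0.23 for those as bright.

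**Figure D1:**
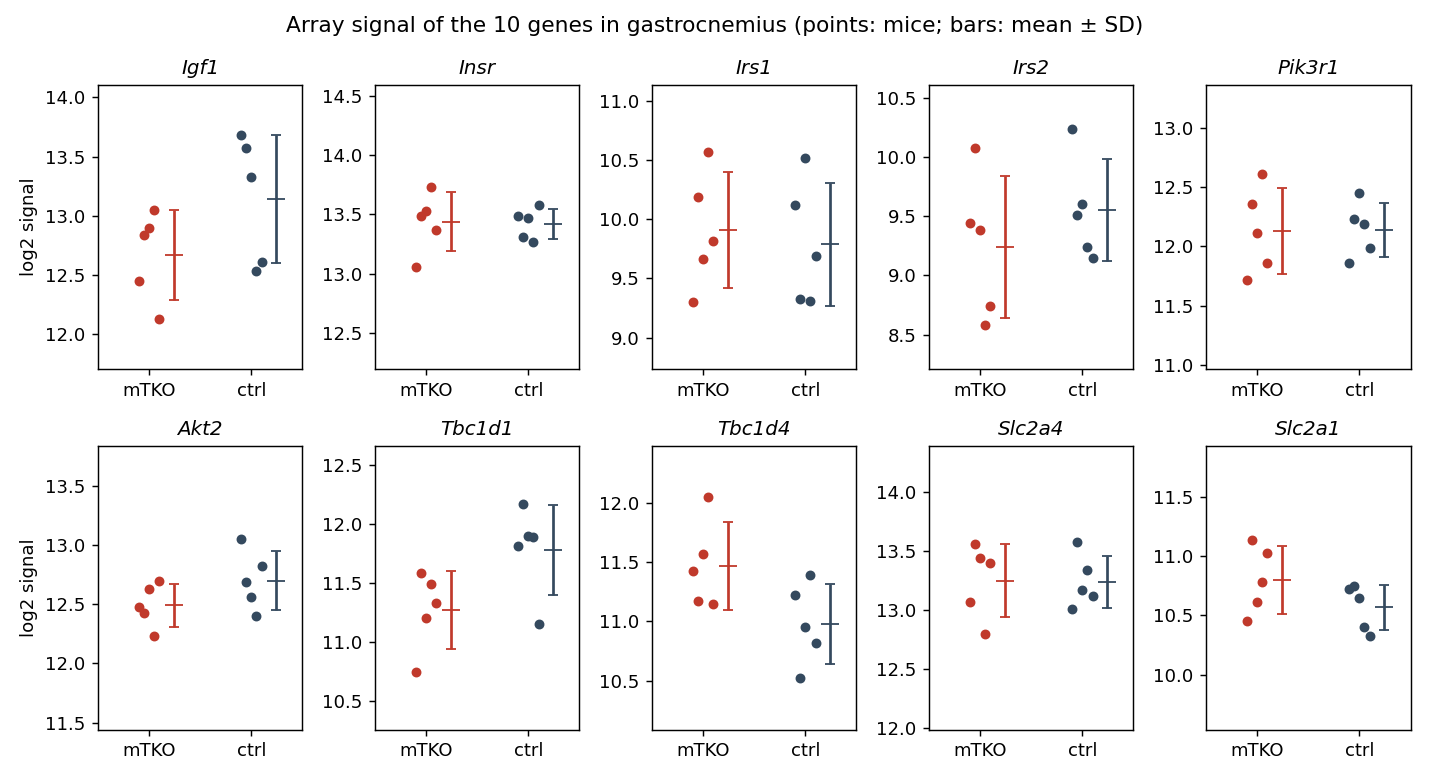
Log2 signal of the 10 genes in mTKO (left, red) and ctrl (right, blue) GTN muscle. Each point is 1 mouse and the bars are mean ± SD (n = 5 each); all panels span the same length of the log2 scale, so that panels can be compared for spread but not for height. The mTKO points of *Tbc1d1* all lie under its ctrl mean and those of *Tbc1d4* all lie over its ctrl mean, and in every panel the genotypes overlap.

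**Figure D2:**
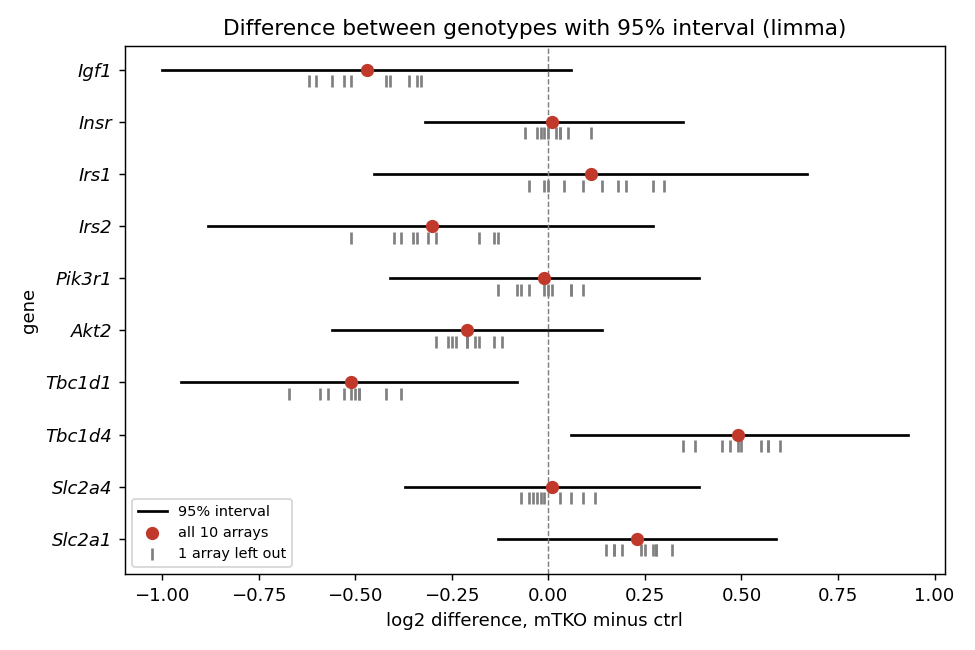
Log2 difference of each gene, mTKO minus ctrl, with its 95% interval from limma (line) and the 10 values obtained when 1 array was left out (grey ticks). The intervals of *Tbc1d1* (-0.95 to -0.08) and *Tbc1d4* (0.06 to 0.93) lie on opposite sides of 0, and the other 8 cross it.

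The pair of Rab GTPase-activating proteins that act on GLUT4 vesicles gave the largest differences among the members, in opposite directions. *Tbc1d1* had a log2 signal of 10.75, 11.58, 11.20, 11.49 and 11.33 in mTKO mice, against 11.81, 12.17, 11.90, 11.89 and 11.15 in ctrl mice. The mTKO mice thus all lay below the ctrl mean, and 4 of the 5 ctrl mice lay above the highest mTKO mouse, with ctrl replicate 5 as the exception. The means were 11.27 ± 0.33 in mTKO and 11.78 ± 0.38 in ctrl mice (SD, n = 5 each), a difference of -0.51 (SE 0.21) or a fold of 0.70 with a 95% interval of 0.517 to 0.948. In limma this had an unadjusted p of 0.0242 and an adjusted p of 0.768, and the two-sided exact permutation test gave an unadjusted p of 0.0635. Without ctrl replicate 5 the genotypes did not overlap and the difference was -0.67. Without mTKO replicate 1, the lowest array, it was -0.38.

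*Tbc1d4*, the target of AKT2 in this step, had 11.43, 11.17, 11.57, 12.05 and 11.15 in mTKO mice, against 11.22, 10.52, 10.95, 11.39 and 10.82 in ctrl mice. Every mTKO mouse was above the ctrl mean, and 3 were above the highest ctrl mouse. The means were 11.47 ± 0.37 in mTKO and 10.98 ± 0.34 in ctrl mice (SD, n = 5 each). The difference of 0.49 (SE 0.21), or a fold of 1.41 with a 95% interval of 1.04 to 1.91, had an unadjusted limma p of 0.0295, an adjusted p of 0.783 and an unadjusted exact permutation p of 0.0714. Leaving out mTKO replicate 4, the highest array, gave 0.35. *Tbc1d1* ranked 686 and *Tbc1d4* ranked 834 by p among all probe sets.

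Both unadjusted calls depended on the test and on single arrays. With the methods' t-test, which does not share the spread between probe sets, neither reached an unadjusted p under 0.05, and the same was true in limma without ctrl replicate 2, which had the highest *Tbc1d1* and the lowest *Tbc1d4* signal of all 10 mice. *Tbc1d1* also missed this level without mTKO replicate 1. *Tbc1d4* missed it without mTKO replicate 3, without mTKO replicate 4 and without ctrl replicate 5.

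**Figure D3:**
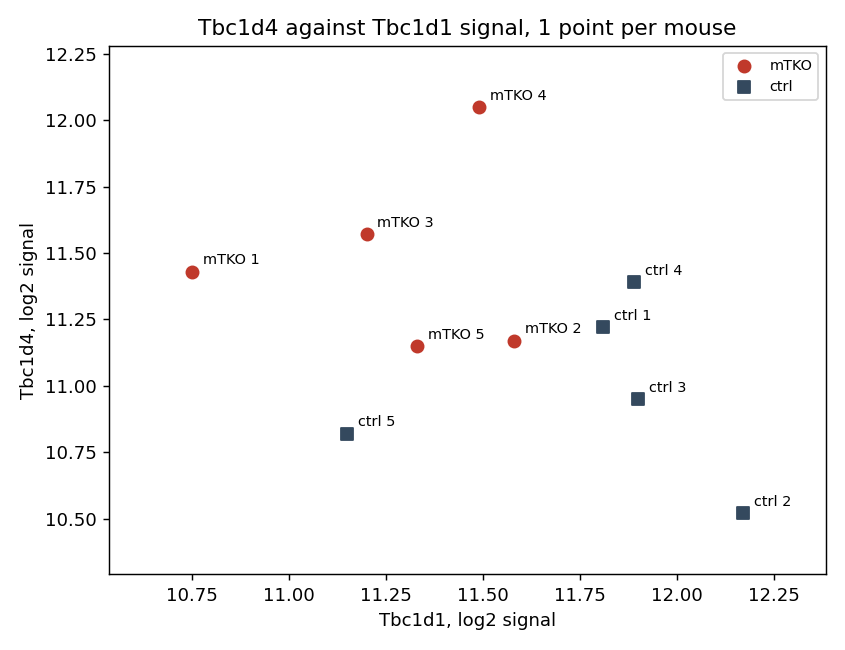
Log2 signal of *Tbc1d4* (vertical axis) against that of *Tbc1d1* (horizontal axis), 1 point per mouse with its replicate number, mTKO as red circles and ctrl as blue squares. The mTKO mice lie towards the upper left and the ctrl mice towards the lower right, with ctrl replicate 5 apart at a low value of both.

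Taken within each array, the *Tbc1d4* minus *Tbc1d1* signal was 0.68, -0.41, 0.37, 0.56 and -0.18 in mTKO mice, against -0.59, -1.65, -0.95, -0.50 and -0.33 in ctrl mice. It averaged 0.20 ± 0.48 in mTKO and -0.80 ± 0.52 in ctrl mice (SD, n = 5 each). The genotypes differed by 1.01, and 4 of 5 mTKO mice exceeded every ctrl mouse while mTKO replicate 2 lay within the ctrl range. This contrast was chosen after the values were seen and is given without a test. Its sign within a group carries no meaning, since probe sets of different genes differ in brightness, and only the difference between genotypes can be read.

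In mice TBC1D1 is known to be more abundant in fast muscles and TBC1D4 in slow ones, so the myosin genes that mark fibre types were set beside the pair. *Myh7*, the slow myosin heavy chain, had 14.89, 13.67, 15.32, 15.77 and 15.03 in mTKO mice, against 14.33, 14.71, 14.67, 14.47 and 14.92 in ctrl mice. Its signal spread over more than 2 log2 units in mTKO mice and differed between genotypes by 0.32 (SE 0.29, adjusted p = 0.897 in limma). In mTKO mice replicate 4 had both the highest *Myh7* and the highest *Tbc1d4*. In ctrl mice the highest *Myh7* was in replicate 5 and the highest *Tbc1d4* in replicate 4. The fast myosin genes *Myh4*, *Myh1* and *Myh2* differed by -0.01, -0.09 and 0.05. *Myh4* and *Myh2* averaged 19.68 and 19.37 in mTKO mice, near 19.91, the highest value of all arrays. Small differences so near the top of the scale cannot show whether fast fibres differed. The part of fibre composition in the values of the pair was not tested.

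The stretches around the start sites of this pair are shown because they are the members that differed most, in opposite directions. RefSeq windows (build GRCm38.p6, 300 bases each, mostly upstream of a start site, printed 5′ to 3′ on the gene's strand) were found for 8 of the 10 members, 13 windows in all. Capitals mark the letters CAGCTG (an E-box bound by myogenic factors) and GGGCGG (a GC box), both searched on both strands, so that a GC box on the other strand reads CCGCCC. The E-box reads the same on both strands and the motifs share no letters in these windows.
Tbc1d1, chr5:64160010-64160309, plus strand: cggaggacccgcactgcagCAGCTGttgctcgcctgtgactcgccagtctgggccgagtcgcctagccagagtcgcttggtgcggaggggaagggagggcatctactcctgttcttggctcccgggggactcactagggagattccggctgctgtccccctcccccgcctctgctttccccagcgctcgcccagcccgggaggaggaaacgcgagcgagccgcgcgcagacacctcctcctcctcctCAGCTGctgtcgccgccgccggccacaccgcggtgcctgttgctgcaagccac
Tbc1d4, chr14:101609142-101609441, minus strand: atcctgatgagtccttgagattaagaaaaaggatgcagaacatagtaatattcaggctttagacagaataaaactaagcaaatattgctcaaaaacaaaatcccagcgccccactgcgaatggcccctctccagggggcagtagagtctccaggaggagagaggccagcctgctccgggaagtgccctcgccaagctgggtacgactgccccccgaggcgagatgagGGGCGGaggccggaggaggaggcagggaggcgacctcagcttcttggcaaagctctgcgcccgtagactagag
The *Tbc1d1* window held 2 E-boxes and no GC box at a GC content of 69.3%. The *Tbc1d4* window held 1 GC box and no E-box at 55.7% GC. A further *Tbc1d1* start, chr5:64230107-64230406, had 4 GC boxes and no E-box, and the array values do not tell which start was used. Of all 32851 windows, 16.3% held the E-box, 35.7% the GC box and 3.65% the forkhead letters TGTTTAC, which no window of a member held.

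Upstream of the pathway, the growth factor gene lay lower in mTKO mice on average and the receptor gene had nearly the same mean in both genotypes. *Igf1* encodes insulin-like growth factor 1, which muscle makes for local use and which acts on a receptor related to that of insulin. Its log2 signal was 12.45, 12.84, 12.90, 13.05 and 12.13 in mTKO mice, against 13.68, 13.57, 13.33, 12.53 and 12.61 in ctrl mice. Of the ctrl mice, 3 lay above every mTKO mouse and 2 within the mTKO range. The means were 12.67 ± 0.38 in mTKO and 13.14 ± 0.54 in ctrl mice (SD, n = 5 each), a difference of -0.47 (SE 0.25) with an adjusted p of 0.821 in limma and an unadjusted p of 0.151 in the exact permutation test. The 95% interval of the fold, 0.501 to 1.04, included no difference. *Igf1* reached an unadjusted p under 0.05 in limma without ctrl replicate 4, without ctrl replicate 5 or without mTKO replicate 4.

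*Insr*, the insulin receptor gene, had 13.06, 13.49, 13.53, 13.73 and 13.37 in mTKO mice, against 13.49, 13.31, 13.47, 13.27 and 13.58 in ctrl mice. The mTKO mice spanned the ctrl range on both sides, and the means were 13.44 ± 0.25 in mTKO and 13.42 ± 0.13 in ctrl mice (SD, n = 5 each). The difference was 0.01 (SE 0.16, adjusted p = 0.995 in limma), with a 95% interval of the fold of 0.80 to 1.27.

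The docking proteins had the largest pooled SD within a genotype, and neither differed by more than that spread. *Irs1*, the main docking protein of muscle in insulin signalling, had 9.30, 10.19, 9.66, 10.57 and 9.82 in mTKO mice, against 10.12, 9.33, 10.52, 9.31 and 9.69 in ctrl mice. Both genotypes covered nearly the same range. The means were 9.91 ± 0.49 in mTKO and 9.79 ± 0.52 in ctrl mice (SD, n = 5 each), with a difference of 0.11 (SE 0.26, adjusted p = 0.975 in limma) and a fold interval of 0.734 to 1.60. *Irs2* encodes its relative, whose transcript is known to respond to fasting and feeding in liver. It had 9.44, 10.08, 9.38, 8.58 and 8.74 in mTKO mice, against 10.24, 9.51, 9.60, 9.24 and 9.15 in ctrl mice. Replicates 4 and 5 of the mTKO mice lay below every ctrl mouse and the other 3 lay among them. Means of 9.24 ± 0.60 in mTKO and 9.55 ± 0.43 in ctrl mice (SD, n = 5 each) gave a difference of -0.30 (SE 0.27, adjusted p = 0.891 in limma). Its fold interval, 0.544 to 1.21, was the widest of the members on the log2 scale.

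*Pik3r1* had almost equal means in both genotypes and *Akt2* a slightly lower mean in mTKO mice. *Pik3r1* encodes the main regulatory subunit, which links phosphatidylinositol 3-kinase to the docking proteins. Its log2 signal was 11.72, 12.36, 12.11, 12.61 and 11.86 in mTKO mice, against 11.86, 12.23, 12.45, 12.19 and 11.99 in ctrl mice. The mTKO range took in every ctrl mouse, and the means of 12.13 ± 0.36 in mTKO and 12.14 ± 0.23 in ctrl mice (SD, n = 5 each) differed by -0.01 (SE 0.19, adjusted p = 0.995 in limma). *Akt2*, the AKT isoform that carries the insulin signal to GLUT4, had 12.48, 12.43, 12.63, 12.23 and 12.70 in mTKO mice, against 13.05, 12.69, 12.56, 12.40 and 12.82 in ctrl mice. No mTKO mouse lay above the ctrl mean, but 4 of the 5 mTKO mice lay within the ctrl range. The means were 12.49 ± 0.18 in mTKO and 12.70 ± 0.25 in ctrl mice (SD, n = 5 each), a difference of -0.21 (SE 0.16) with a fold of 0.865 and an interval of 0.680 to 1.10. It had an adjusted p of 0.871 in limma and an unadjusted p of 0.175 in the exact permutation test.

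The insulin-responsive transporter gene did not separate the genotypes. *Slc2a4*, which encodes GLUT4, had 13.07, 13.56, 13.44, 12.80 and 13.40 in mTKO mice, against 13.01, 13.58, 13.17, 13.34 and 13.12 in ctrl mice. Apart from mTKO replicate 4, which was the lowest array, the mTKO mice lay within the ctrl range. The means were 13.25 ± 0.31 in mTKO and 13.24 ± 0.22 in ctrl mice (SD, n = 5 each), with a difference of 0.01 (SE 0.18, adjusted p = 0.996 in limma). The 95% interval of the fold was 0.775 to 1.31, and a difference inside it could not be told from none with 5 mice a group.

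*Slc2a1* encodes GLUT1, the transporter known for basal uptake, which endothelial and nerve sheath cells of a muscle also use. It had 10.45, 11.14, 10.61, 10.78 and 11.03 in mTKO mice, against 10.72, 10.75, 10.65, 10.40 and 10.33 in ctrl mice. The highest 3 of the 10 mice were mTKO, and the remaining mTKO mice lay among the ctrl mice. Means of 10.80 ± 0.29 in mTKO and 10.57 ± 0.19 in ctrl mice (SD, n = 5 each) gave a difference of 0.23 (SE 0.17, adjusted p = 0.868 in limma) and a fold of 1.17 with an interval of 0.914 to 1.51. On the log2 scale, the summed signal of 11 endothelial markers was 15.34 to 15.87 in mTKO and 15.66 to 16.12 in ctrl mice. Of these markers 7 were higher and 4 lower on average in mTKO mice, with a median difference of 0.04. *Ly6c1*, the brightest, weighs most in that sum, at 14.21 to 14.65 in mTKO and 14.80 to 15.20 in ctrl mice. The 5 nerve and Schwann cell markers summed to 13.12 to 14.81 in mTKO and 13.61 to 14.06 in ctrl mice. That sum is carried by *Pmp22*, at 13.00 to 14.66 in mTKO and 13.49 to 13.95 in ctrl mice. The share of endothelial and nerve sheath cells in the *Slc2a1* values was not tested.

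The members differed in how much they varied between mice of 1 genotype. Pooled over both genotypes, the SD was smallest for *Insr* (0.20) and *Akt2* (0.22) and largest for *Irs2* (0.52), *Irs1* (0.51) and *Igf1* (0.47). The median of this pooled SD was 0.33 for the members, 0.30 for all probe sets and 0.23 for probe sets as bright as the members. Single mice stood at the edge of their group for several members at once. The array of mTKO replicate 4 was the highest mTKO array for *Insr*, *Irs1*, *Pik3r1*, *Tbc1d4* and *Igf1* and the lowest for *Irs2*, *Akt2* and *Slc2a4*. Replicate 1 of the mTKO mice was lowest for 5 members, replicate 2 was highest for 4, and replicate 3 was at neither end for any. Ctrl arrays were at an end for 2 to 5 members each. Quality weights estimated by limma ran from 0.807, for mTKO replicate 4, to 1.11.

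Probe sets whose signal followed that of a member most closely over the 10 arrays were found by Pearson's r, as a description without a test. With candidates from the 19572 probe sets with 1 symbol and only 10 points, high coefficients occur for any pattern. The 2 closest to *Tbc1d1* were *Ccl11* (r = 0.95) and *Lamp5* (0.94), and those closest to *Tbc1d4* were *Olfr1340* (0.92) and *Mageb16-ps1* (0.91). *Akt2* had *Sar1b* (0.98), a GTPase of vesicle budding, and *Gtf2h1* (0.93). *Slc2a4* was followed by *Kyat3* (0.94) and *Hes2* (0.93), *Slc2a1* by *Trim11* (0.92) and *Olfr279* (0.91), and *Igf1* by *Olfr169* (0.92) and *Olfr160* (0.92). For *Insr* they were *Cst12* (0.93) and *Slc9a2* (0.92), for *Irs1* *Gsto2* (0.96) and *AA414768* (0.92), for *Irs2* *Enho* (0.97) and *Rad23b* (0.96), and for *Pik3r1* *Tnxb* (0.96) and *Maged1* (0.95). No member was among the 2 closest of another.

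None of the other genes of the pathway passed the adjusted threshold either. Lists by role held 97 further genes, of which 90 had a named probe set, and their differences were positive for 41 and negative for 49 with a median of -0.01. At an unadjusted p under 0.05 there were 4 higher and 3 lower in mTKO mice, or 7.78% of the 90, near the 6.36% of all probe sets. No list held a gene whose genotypes did not overlap.

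**Figure D4:**
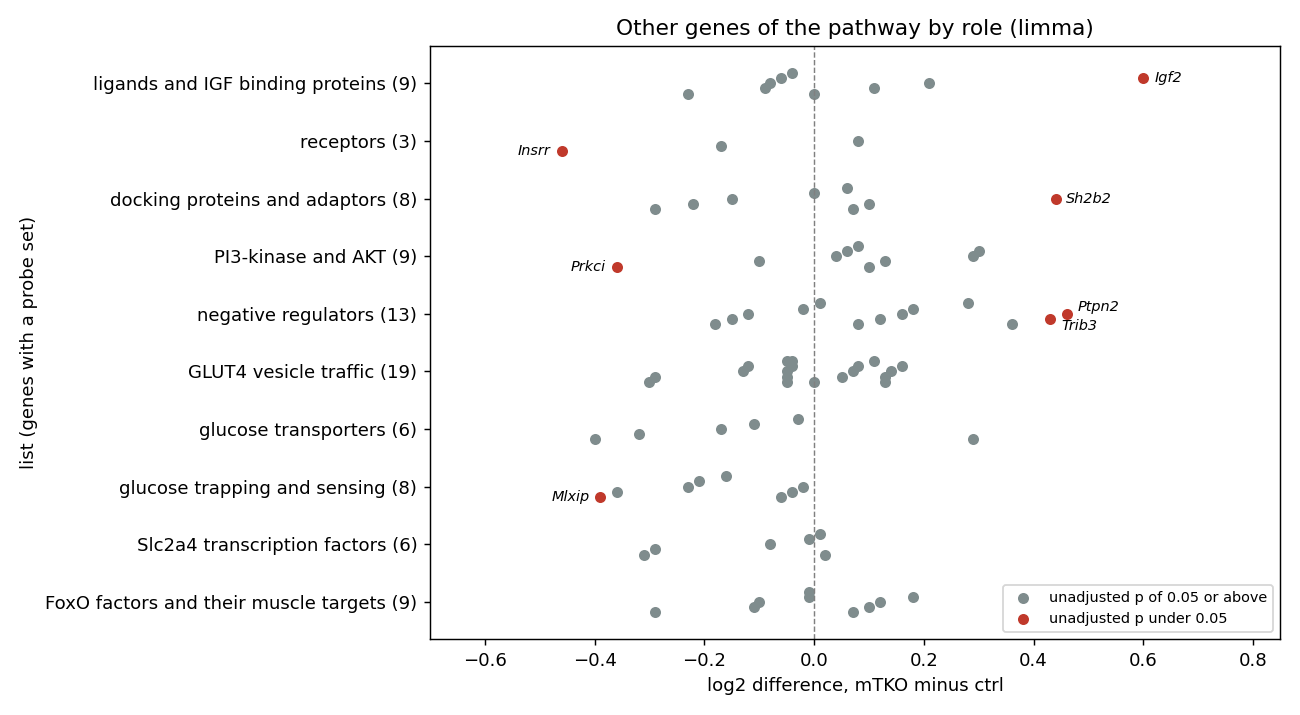
Log2 difference, mTKO minus ctrl, of the 90 other pathway genes with a named probe set, 1 point per gene, in rows by role with the number of genes in brackets. The 7 genes at an unadjusted limma p under 0.05 are red and named, and all points lie between -0.46 and 0.60; points are shifted vertically within a row only to show them apart.

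Among 9 further ligands and binding proteins, *Igf2*, the fetal growth factor that is also active in regenerating muscle, averaged 10.53 ± 0.54 in mTKO and 9.94 ± 0.43 in ctrl mice (SD, n = 5 each). Its difference of 0.60 (SE 0.26) was the largest of the 90 and opposite in sign to that of *Igf1*. The adjusted p of *Igf2* was 0.783 in limma and its unadjusted p 0.103 in the exact permutation test. The binding protein genes *Igfbp5* and *Igfbp6* differed by 0.21 and -0.23. Of the receptors, *Igf1r* differed by -0.17 and *Igf2r* by 0.08. *Insrr*, the insulin receptor-related receptor, differed by -0.46 (SE 0.20) at signals below or near the median of all probe sets. Its adjusted p was 0.783 in limma and its unadjusted p 0.0635 in the exact permutation test.

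The 8 measured docking proteins and adaptors included *Sh2b2* (also called APS), an adaptor that binds the insulin receptor. It averaged 6.83 ± 0.17 in mTKO and 6.39 ± 0.36 in ctrl mice (SD, n = 5 each). The difference of 0.44 (SE 0.18) had an adjusted p of 0.781 in limma and an unadjusted exact permutation p of 0.0556. *Cbl* and *Dok1* differed by -0.29 and -0.22. In the kinase list 7 of 9 differences were positive, with a median of 0.08. *Akt1* had 11.55, 12.44, 11.66, 11.85 and 11.41 in mTKO mice, against 11.27, 11.47, 11.72, 11.67 and 11.26 in ctrl mice, a difference of 0.30 (SE 0.19, adjusted p = 0.852 in limma) with overlapping genotypes. *Pik3r2*, another regulatory subunit gene, differed by 0.29. *Prkci*, an atypical protein kinase C, averaged 8.26 ± 0.21 in mTKO and 8.62 ± 0.17 in ctrl mice and differed by -0.36 (SE 0.16), with an adjusted limma p of 0.783 and an unadjusted exact permutation p of 0.0159.

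Of 13 measured negative regulators, 9 differences were positive and 4 negative, with a median of 0.12. *Ptpn2*, a tyrosine phosphatase that can act on the insulin receptor, had 9.69, 9.69, 9.88, 9.28 and 10.03 in mTKO mice, against 9.45, 9.29, 9.00, 9.25 and 9.28 in ctrl mice. Only mTKO replicate 4 lay within the ctrl range, and the difference of 0.46 (SE 0.17) had the lowest adjusted p of the pathway genes, 0.727 in limma, with an unadjusted p of 0.0317 in the exact permutation test. *Trib3*, a stress-induced pseudokinase that binds AKT, averaged 7.34 ± 0.42 in mTKO and 6.91 ± 0.21 in ctrl mice. Its difference of 0.43 (SE 0.20) had an adjusted p of 0.783 in limma and an unadjusted exact permutation p of 0.0952. *Grb10*, an adaptor that restrains the insulin and IGF receptors, differed by 0.36 (SE 0.19, adjusted p = 0.821 in limma).

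The 19 measured genes of GLUT4 vesicle traffic held none at an unadjusted p under 0.05, and their differences ran from -0.30 to 0.16. *Stxbp4*, which binds the syntaxin of GLUT4 fusion, differed by -0.30 (SE 0.16), and *Stx4a*, that syntaxin, by 0.16, and the motor protein gene *Kif5b* by 0.13. Of 6 further glucose transporters, *Slc2a12* differed by -0.32 (SE 0.17, adjusted p = 0.825 in limma) and *Slc2a3* and *Slc2a5* by -0.40 and 0.29. In this list 5 genes had mean signals below the median of all probe sets, *Slc2a12* being the exception.

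In the list of glucose trapping and sensing the differences of all 8 genes were negative, with a median of -0.19, where 49.9% of all probe sets were positive. The genes share arrays and regulation, and these 8 are not independent counts. *Mlxip* (MondoA, which senses glucose phosphates in muscle) had 11.48, 11.23, 11.73, 11.51 and 11.59 in mTKO mice, against 12.19, 11.84, 11.94, 11.87 and 11.65 in ctrl mice. Only ctrl replicate 5 lay within the mTKO range, and the difference was -0.39 (SE 0.15) with an adjusted p of 0.768 in limma and an unadjusted p of 0.0159 in the exact permutation test. *Txnip*, a MondoA target that binds thioredoxin and restrains glucose uptake, had 16.25, 16.31, 17.41, 17.08 and 16.92 in mTKO mice, against 17.03, 17.00, 17.14, 17.15 and 17.47 in ctrl mice. Replicates 1, 2 and 5 of the mTKO mice were below every ctrl mouse, replicate 5 by little, and the other two lay within the ctrl range, giving -0.36 (SE 0.21, adjusted p = 0.840 in limma). *Gsk3a*, a kinase that inhibits glycogen synthase, differed by -0.21. *Hk2*, the hexokinase of muscle, was singled out after its values were seen and averaged 14.56 ± 0.19 in mTKO and 14.58 ± 0.14 in ctrl mice (-0.02, SE 0.15, adjusted p = 0.993 in limma).

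Among 6 transcription factors of *Slc2a4*, *Mef2a* and *Mef2d* differed by -0.31 and -0.29 (SE 0.16 each, adjusted p = 0.821 and 0.825 in limma) and the coactivator gene *Ppargc1a* by -0.08, beside the *Slc2a4* difference of 0.01. The FoxO factors, which AKT holds out of the nucleus, and their muscle targets had 4 positive and 5 negative differences. *Foxo1* differed by -0.29 (SE 0.24, adjusted p = 0.885 in limma), *Foxo3* by 0.18, and *Trim63*, the ubiquitin ligase of muscle atrophy, by -0.10.

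Genes that respond to glucocorticoids or to the hour of day were read beside these values because both alter insulin signalling in muscle. Of 18 measured glucocorticoid-induced genes 15 were lower and 3 higher on average in mTKO mice, with a median of -0.25, where 49.9% of all probe sets were positive. None was called, and 3 (16.7%) were at an unadjusted p under 0.05, against 6.36% of all probe sets. *Per1*, a gene of both lists, averaged 6.22 ± 0.64 in mTKO and 7.55 ± 0.74 in ctrl mice (-1.33, SE 0.34, adjusted p = 0.562 in limma). *Arrdc2* differed by -1.77 (SE 0.47, adjusted p = 0.588) and *Zbtb16* by -0.52 (SE 0.20, adjusted p = 0.765), both in limma. Of 15 clock genes 11 were negative and none was called, and 3 of the 15 (20%) were at an unadjusted p under 0.05, 1 higher and 2 lower: *Npas2* at 0.58, *Per2* at -0.58 and *Per1*. Both lists were chosen with earlier results of these data known, and their genes share arrays and regulation. The shares are therefore not independent counts and not an unbiased comparison with all probe sets. The part of stress, feeding or hour in the values of the members was not tested.

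The myofibre markers, the defining genes of the tissue, were the brightest of the marker lists and showed no unadjusted p under 0.05, with a log2 of the summed signal of 22.19 to 22.25 in mTKO and 22.24 to 22.28 in ctrl mice. That sum is carried by signals near the highest value of all arrays, 19.91, which limits what it can show. The 7 adipocyte markers summed to 14.91 to 15.42 in mTKO and 14.72 to 15.08 in ctrl mice. That sum was carried by *Fabp4* (14.84 to 15.40 in mTKO and 14.70 to 15.05 in ctrl mice). The other 6 were far dimmer and lower on average in mTKO mice, with *Adipoq* at a difference of -0.63 (SE 0.81) and *Lep* at -0.46 (SE 0.18). *Adipoq* was highest in replicate 2 of each genotype, at 10.02 in ctrl and 9.46 in mTKO mice. Those arrays also had the highest *Tbc1d1* signal of their genotype. The 7 fibroblast markers summed to 17.69 to 18.32 in mTKO and 17.99 to 18.23 in ctrl mice, carried mostly by *Dcn*. The collagen genes *Col1a1*, *Col1a2* and *Col3a1* were highest in mTKO replicate 4, at 14.06, 14.34 and 14.19. Ctrl mice reached at most 12.38, 13.20 and 13.10. The 7 macrophage markers summed to 11.43 to 12.59 in mTKO and 11.38 to 12.20 in ctrl mice. Of these, *Adgre1* (-0.54, SE 0.20) and *Mrc1* (0.44, SE 0.20) were at an unadjusted limma p under 0.05 (28.6%, against 6.36% of all probe sets). *Ly6c1*, an endothelial marker chosen after its values were seen, differed by -0.64 (SE 0.15, adjusted p = 0.539 in limma) with no overlap between genotypes. The 11 endothelial markers had 7 positive and 4 negative differences with a median of 0.04. At an unadjusted limma p under 0.05 were *Ly6c1* and *Tie1* (-0.40, SE 0.17, adjusted p = 0.781 in limma). They make 18.2% of the list, against 6.36% of all probe sets. *Cldn5* differed by 0.56 (SE 0.29, adjusted p = 0.819 in limma). The 5 satellite cell markers, of cells without Cre, all had positive differences with a median of 0.16, where 49.9% of all probe sets were positive. The genes share arrays, and these 5 are not independent counts. Their sum was 10.03 to 10.41 in mTKO and 9.79 to 10.36 in ctrl mice. *Sdc4* carried it, at 9.65 to 10.15 in mTKO and 9.37 to 10.09 in ctrl mice. Mean signals of 3 of the 5 lay below the median of all probe sets. *Pax7* was at an unadjusted p under 0.05 (0.47, SE 0.17, adjusted p = 0.759 in limma) at signals below the median of all probe sets. The part of these cells in the members' values was not tested.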

How the data were processed

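RNA of whole GTN muscle from 5 mTKO and 5 ctrl male mice was measured with Clariom S mouse arrays, 1 mouse per array. The deposited values are log2 signals that the authors computed with SST-RMA in Affymetrix Expression Console 1.4, which corrects background and normalizes between arrays, and they were used as they stand. The platform annotation gave 1 symbol to 19572 of 22206 probe sets and none to 2634. The genome build of that annotation is not given in the sources used here.

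A linear model of genotype was fitted to every probe set with limma 3.58.1 (R 4.3.3), moderated with 7.53 prior degrees of freedom. P-values were adjusted across the 22206 probe sets (Benjamini-Hochberg) at a threshold of 0.05, and intervals are at 95%. For members and listed genes, an exact permutation test (two-sided) ran over the 252 assignments of arrays to genotypes, without adjustment. Arrays limit the precision through their number. Sequences came from RefSeq tables of GRCm38.p6. Plots used matplotlib 3.10.9 in Python 3.11.

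Members and gene lists were chosen with earlier results of these data known. Named genes were all members, *Txnrd2*, the 3 genes with the smallest unadjusted p in each list of roles or states, and the 2 probe sets most correlated with each member. *Hk2*, *Adipoq*, *Cldn5*, *Fabp4*, *Lep*, *Ly6c1*, *Pax7*, *Myh1*, *Myh2*, *Myh4* and *Myh7* are outside this rule. So are the markers *Adgre1*, *Col1a1*, *Col1a2*, *Col3a1*, *Dcn*, *Mrc1*, *Pmp22*, *Sdc4* and *Tie1*. Alternatives were other tests, variance models, array weights, scalings, a filter on dim probe sets, a replicate block and leaving out each array. Mice sharing a replicate number did not deviate together, and the numbers were not used to pair them.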

Additional observations from a re-analysis of the deposited data

How the results depend on the processing

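No member and no other pathway gene was called at an adjusted p under 0.05 in limma or under any of the alternatives, 8 or 9 for each count, or with any of the 10 arrays left out. Members at an unadjusted p under 0.05 numbered 2 in limma, 0 with the methods' t-test, and 0 (without ctrl replicate 2) to 3 (without ctrl replicate 4) when 1 array was left out. Members whose genotypes did not overlap numbered 0, and 0 to 1 with an array left out, the 1 being *Tbc1d1* without ctrl replicate 5. Over all probe sets, 1 was called in limma, 0 with the methods' t-test after Benjamini-Hochberg adjustment, 9 with a variance trend and robust fit, 0 after quantile normalization, 3 with dim probe sets left out, 13 by the methods' t-test at p under 0.05 with a fold above 2, and 0 to 1 with an array left out.

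The direction of 4 members near 0 depended on single arrays. The log2 difference with 1 array left out ran for *Insr* from -0.06 (without mTKO replicate 4) to 0.11 (without mTKO replicate 1), for *Irs1* from -0.05 (without mTKO replicate 4) to 0.30 (without ctrl replicate 3), for *Pik3r1* from -0.13 (without mTKO replicate 4) to 0.09 (without mTKO replicate 1), and for *Slc2a4* from -0.07 (without mTKO replicate 2) to 0.12 (without mTKO replicate 4). The sign turned in 5, 3, 4 and 6 of 10 such fits. The other 6 kept their sign in all 10, with ranges of -0.51 to -0.13 for *Irs2*, -0.29 to -0.12 for *Akt2*, 0.15 to 0.32 for *Slc2a1*, -0.67 to -0.38 for *Tbc1d1*, 0.35 to 0.60 for *Tbc1d4* and -0.62 to -0.33 for *Igf1*. No scaling, test or weighting turned a sign.

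With the replicate number as a block (replicate block), 0 members were called, 2 were at an unadjusted p under 0.05, and 1 probe set was called over all, as without it. Deviations of mice with the same number correlated at 0.04, 0.16, -0.04, 0.02 and 0.06. Averaging the probe sets of a gene was planned but changes nothing here, since each member has 1. With 5 mice a group the standard errors of the members, a median of 0.20, set the size of difference that can be seen.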
